A study of Mus musculus with 8 samples.

Results

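The 9 genes described here encode components of basement membranes, and were taken from the 31053 genes of the files by their symbols. They are 3 collagen genes (Col4a1, Col4a2 and Col17a1), 3 laminin genes (Lama3, Lama5 and Lamb3), both nidogens (Nid1 and Nid2) and Hspg2, which encodes the proteoglycan perlecan. All 9 were found. The data are 8 single-cell RNA-seq libraries from dorsal skin of female BALB/c mice aged 14 to 16 weeks, 4 after subcutaneous injection of PBMCsec and 4 after injection of vehicle. PBMCsec is the secretome of irradiated human peripheral blood mononuclear cells, that is, the medium into which these cells have released their products. No genotype was altered in either group. From the labels only the treatment and the number of each library (1 to 4) are known, not the wounding, the time point or the composition of the vehicle, and they do not say that each library is a mouse of its own, so p-values measure the spread between libraries, which may be technical. The series title concerns mast cells and basophils, and the methods and limits used here are those of a skin study that lists these libraries among its data. By those methods viable cells were sorted before loading, and the 3′ ends of polyadenylated RNA were counted as unique molecular identifiers (UMIs).

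A basement membrane is a thin sheet of extracellular matrix under epithelia and around vessels, hair follicles, muscle and nerve. Laminin trimers and collagen IV each assemble into a network, and nidogens and perlecan link both networks. In skin, laminin-332 (of which Lama3 and Lamb3 encode the α3 and β3 chains) and collagen XVII (the transmembrane collagen of hemidesmosomes, encoded by Col17a1) anchor basal keratinocytes to the sheet. Collagen IV of the α1 and α2 chains and the laminin α5 chain are found in the basement membranes of the epidermis, the follicles and the vessels.

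The genes lie on 8 chromosomes (GRCm38, GENCODE annotation, all protein-coding). Col4a1 (chromosome 8, 11198423 to 11312826, minus strand) and Col4a2 (chromosome 8, 11312805 to 11449287, plus strand) are neighbours with opposite directions. Col17a1 lies on chromosome 19 (47646344 to 47692094, minus strand), Lamb3 on chromosome 1 (193207699 to 193343878, plus strand) and Lama5 on chromosome 2 (180176373 to 180225859, minus strand). Nid1 lies on chromosome 13 (13437551 to 13512269, plus strand), Nid2 on chromosome 14 (19751265 to 19811787, plus strand), Hspg2 on chromosome 4 (137468769 to 137570630, plus strand) and Lama3 on chromosome 18 (12333819 to 12583013, plus strand).

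The limits of the study (500 to 4000 detected genes, no more than 20000 UMIs, mitochondrial counts of 5% or less) left 6150 of 26231 barcodes. The libraries held between 14753926 and 37880651 UMIs, and between 151 and 1659 kept cells. Vehicle library 1 (151 cells), vehicle library 2 (208 cells) and PBMCsec library 2 (313 cells) were the smallest, and the largest treatment differences are also given without single libraries or with libraries 3 and 4 alone. Of 6146 distinct barcodes among kept cells, 4 occurred in at least 2 libraries. Clustering without the 9 genes gave 34 clusters, of which 29 were named from marker genes. Keratinocytes (KCs) held 919 cells in 4 clusters, hair follicle cells (HFs) 1629 cells in 6 clusters, and fibroblasts (FBs) 1364 cells in 6 clusters. Endothelial cells (ECs) held 84 cells in 2 clusters, and smooth muscle cells and pericytes (SMCs/PCs) 38 cells in 1 cluster. T cells (TCs), with 837 cells, served as the class that should lack the 9 genes. Values are CPM, the UMIs of a gene as a share of 1000000 UMIs of all cells of a class in a library. The counts are of molecules from 1 end of the transcript, so they are not scaled to gene length.

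The genes fell into an epithelial group and a stromal and vascular group. Col17a1, Lama3 and Lamb3 were highest in KCs and next in HFs, and Nid1 was highest in FBs. Col4a1 and Col4a2 were highest in SMCs/PCs and ECs, Hspg2 in ECs and FBs. Lama5 was the exception among the laminins, with its highest levels in HFs, ECs and SMCs/PCs.

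**Figure D1:**
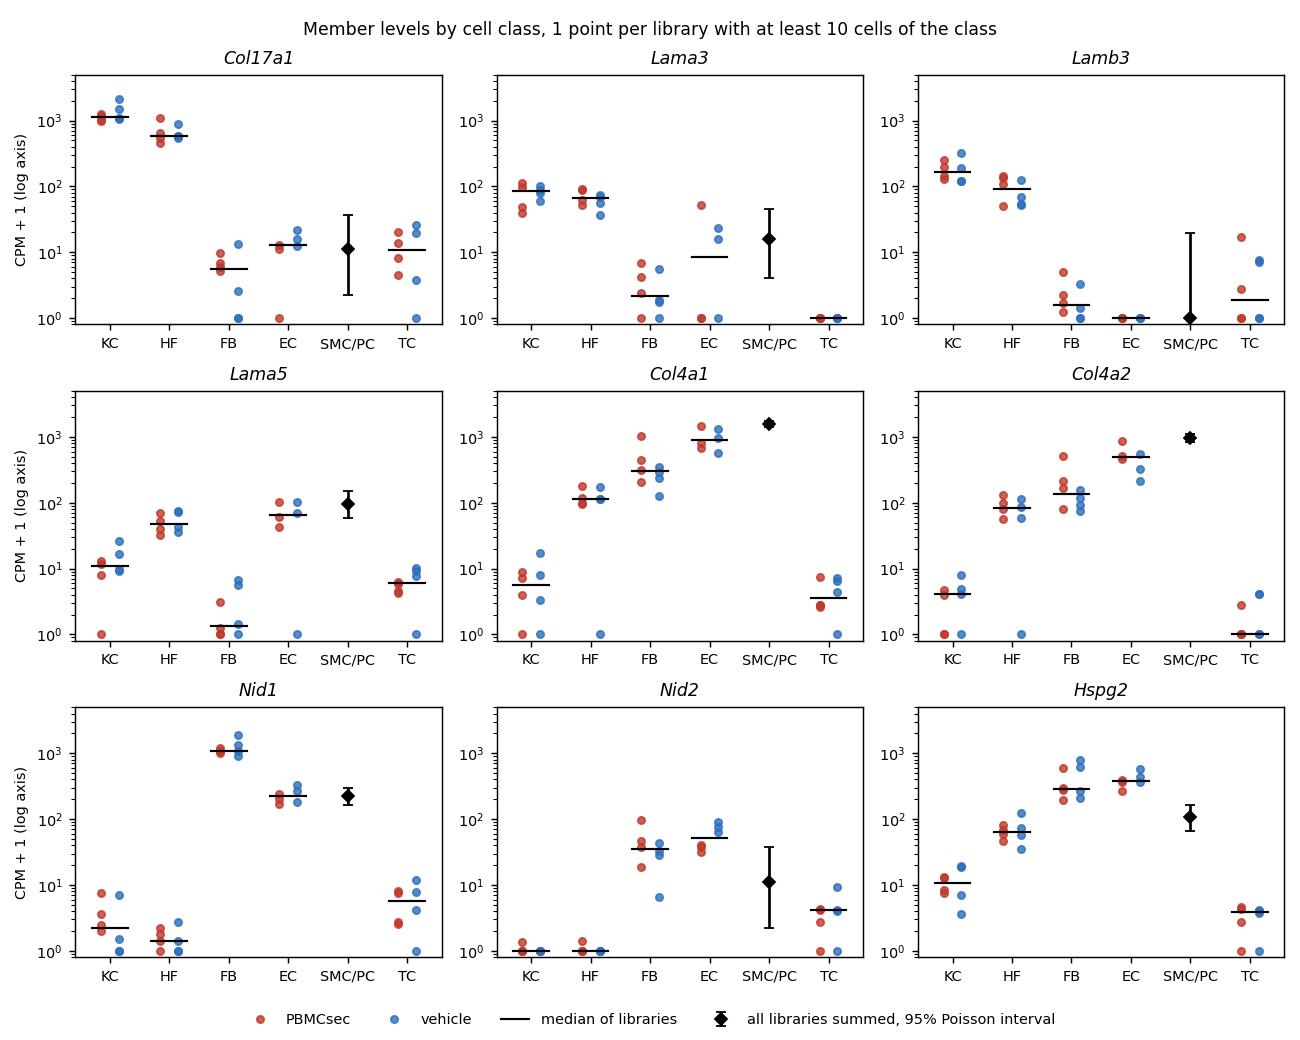
Level of each of the 9 genes in 6 cell classes (CPM + 1, log axis), with 1 point per library holding at least 10 cells of the class, red for PBMCsec and blue for vehicle, and a line at the median. SMCs/PCs are summed over all libraries (diamond, 95% Poisson interval), since only 1 library held 10 such cells. Col17a1, Lama3 and Lamb3 sit high in KCs and HFs, Nid1 in FBs, and Col4a1 and Col4a2 in FBs, ECs and SMCs/PCs.

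The sequence around the start sites of 5 of these genes is shown first, since Col4a1 and Col4a2 share theirs and the other 3 stand for the epidermal and the FB genes. RefSeq windows of 300 bases (GRCm38.p6, 250 before and 50 after the start) were found for 7 of the 9 genes. The 5′ ends of the Col4a1 and Col4a2 transcripts overlap by 22 bases (chr8:11312805-11312826, plus strand), and both windows share 78 bases. These 22 bases lie within both transcripts, unlike the other stretches printed. The stretch between the starts is printed 5′ to 3′ on the plus strand, followed by the exon-free part upstream of Col17a1 (chr19:47692095-47692292, minus strand), of the first listed start of Lamb3 (chr1:193301744-193301992, plus strand) and of Nid1 (chr13:13437352-13437550, plus strand), each on the strand of its gene. Capitals mark matches, on either strand, to 4 short promoter motifs. The first is TATAAA, the core of the element that positions transcription near a start. The next is GGGCGG, called the GC box and bound by Sp1. The CCAAT box is bound by NF-Y, and the last motif, TGANTCA, is the site of the AP-1 dimers.
Col4a1 and Col4a2: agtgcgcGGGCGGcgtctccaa
Col17a1: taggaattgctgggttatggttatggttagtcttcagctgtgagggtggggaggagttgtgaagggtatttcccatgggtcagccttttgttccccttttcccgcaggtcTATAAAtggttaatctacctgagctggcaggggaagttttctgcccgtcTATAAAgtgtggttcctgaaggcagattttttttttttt
Lamb3: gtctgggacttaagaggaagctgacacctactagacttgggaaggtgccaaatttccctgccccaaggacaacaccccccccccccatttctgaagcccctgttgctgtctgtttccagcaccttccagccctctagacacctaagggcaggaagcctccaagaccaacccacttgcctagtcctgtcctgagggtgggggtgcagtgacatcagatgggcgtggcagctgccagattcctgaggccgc
Nid1: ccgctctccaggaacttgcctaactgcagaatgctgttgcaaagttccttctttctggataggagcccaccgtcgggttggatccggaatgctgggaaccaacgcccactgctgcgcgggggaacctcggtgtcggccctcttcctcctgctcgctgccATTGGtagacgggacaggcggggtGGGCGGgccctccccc

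Col17a1 was the only one of the 7 genes with a TATA box in its window, which held 2 matches, against 13.6% of all 32851 windows with at least 1. GC boxes were found in the windows of Col4a1 (1 match), Col4a2 (3), Nid1 (1), Hspg2 (5) and Lama5 (4), against 35.7% of all windows, and in neither that of Col17a1 nor those of Lamb3. A CCAAT box was found for Col4a1, Col4a2, Nid1 and Col17a1, against 37.4% of windows, and an AP-1 site for none of the 7, against 7.81%. The GC content was 74% for Col4a1, 73.7% for Col4a2, 72.7% for Lama5 and 70.3% for Hspg2, and 46.3% for Col17a1, beside a median of 52.7% over all windows. The matches describe these letters and are not shown to be bound sites.

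Col17a1 gave the most UMIs of the 9 genes, 20916 in kept cells. KCs held 53.2% of them and HFs 43.6%. In KCs its level was 1235, 1181, 1009 and 996 CPM in PBMCsec libraries 1 to 4 and 1508, 2088, 1039 and 1096 CPM in vehicle libraries 1 to 4. All 8 libraries lay far above FBs, where the highest was 12.2 CPM. Of 919 KCs, 90.4% held a Col17a1 UMI (95% Clopper-Pearson interval 88.3% to 92.3%, counting error only), against 3.94% of TCs. KCs were deeper than TCs, with a median of 10975 and 3342 UMIs per cell. With each cell thinned to 2000 UMIs, which left 878 KCs and 734 TCs, the shares were 77.7% and 2.32%. In FBs 4.91% of cells held a UMI, and 1.34% after thinning, at or below the share in thinned TCs, so Col17a1 in FBs was at background.

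Lama3 and Lamb3 encode chains of 1 laminin, and both were highest in KCs and HFs. In KCs Lama3 stood at 111, 38.9, 96.2 and 48.4 CPM after PBMCsec and at 88.7, 101, 78.8 and 58.1 CPM after vehicle. Lamb3 stood at 194, 253, 128 and 141 CPM after PBMCsec and at 186, 318, 122 and 119 CPM after vehicle. Both genes were above 30 CPM in every library in KCs and below 6 CPM in every library in FBs. KCs and HFs held 44.8% and 46.5% of the 1804 Lama3 UMIs, and 54.6% and 41.4% of the 2645 Lamb3 UMIs. In TCs no Lama3 UMI was found in 837 cells, which allows a share of cells with a UMI of up to 0.358% at this depth, and 1.31% held Lamb3. This limits cells with a UMI, not cells that express the gene. In ECs no Lamb3 UMI was found in 84 cells, which allows a share with a UMI of up to 3.57%. Among KCs with a Lama3 UMI 75% also held Lamb3, and among KCs without one 41.1% did, a description that depth per cell enters.

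Comparing KCs with FBs asked which of the genes had more RNA in epidermal and which in dermal cells. The sums of both classes in each of the 8 libraries were compared with library as a block (edgeR's quasi-likelihood test, Benjamini-Hochberg adjustment over all genes). Of 8837 genes tested, 33.7% were called higher and 36.7% lower in KCs, so a call is common between these classes. Of the 7 members tested, 3 were called higher in KCs, Col17a1 with a log2 fold change of 7.71 (SE 0.29, adjusted p = 1.81e-13), Lamb3 with 7.37 (SE 0.25, adjusted p = 6.99e-14) and Lama3 with 5.78 (SE 0.29, adjusted p = 1.05e-11). The other 4 were called lower, Nid1 by -8.73 (SE 0.31, adjusted p = 1.32e-13), Col4a1 by -5.56 (SE 0.32), Col4a2 by -5.23 (SE 0.29) and Hspg2 by -4.97 (SE 0.20). The median over all genes was -0.027. In the lower class Col17a1 (6.37 CPM in FBs), Lamb3 (0.861 CPM in FBs) and Nid1 (2.50 CPM in KCs) were under their TC levels. Those were 10.4, 4.15 and 4.44 CPM, so the sizes of these 3 changes rest on counts at background. Lama5 and Nid2 had too few counts and were not tested. These 7 calls and directions were kept under every alternative run.

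KCs did not carry the epidermal genes evenly. The suprabasal cluster (led by Krt1, Krt10 and Mt4, the first 2 of which are keratins of differentiating cells) had 528 CPM of Col17a1 (95% Poisson interval 502 to 554), 33.1 of Lama3 (27.0 to 40.1) and 25.1 of Lamb3 (19.8 to 31.3). The cluster led by Gnai1, Ndufa4l2 and Sox6 had 1507, 116 and 207 CPM, and the cluster led by Serpinb2, Fosl1 and Itpkc 1385, 109 and 216 CPM of the same genes. In the libraries with at least 10 cells of a cluster, Col17a1 ranged from 316 to 600 CPM in the suprabasal cluster (5 libraries) and from 1338 to 2319 CPM in the Gnai1 cluster (6 libraries), and Lamb3 from 7.74 to 42.4 and from 162 to 340 CPM. Neither gene overlapped between these clusters. In KCs the cluster led by Cenpf and Mki67, genes of dividing cells, had 834 CPM of Col17a1 and 113 of Lamb3 but 28.2 of Lama3, the last close to the suprabasal value.

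**Figure D2:**
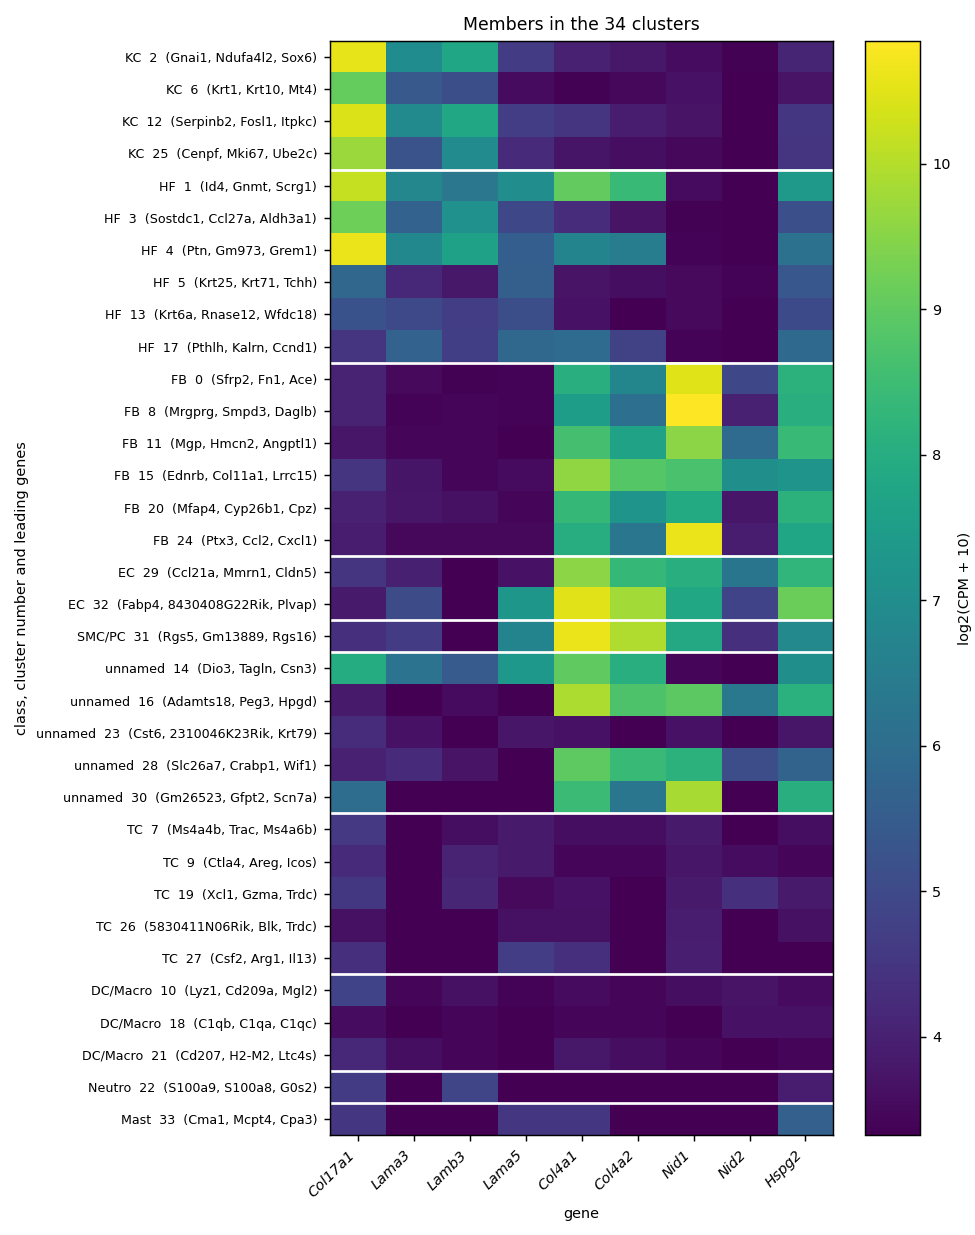
Levels of the 9 genes in each of the 34 clusters as log2(CPM + 10), with cells of all libraries summed. Rows are clusters grouped by class, with their number and 3 leading genes, and columns are genes. The suprabasal KC cluster 6 is lower in Col17a1 and Lamb3 than the other KC clusters, and HF cluster 1 is the HF cluster with the most Col4a1 and Col4a2.

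HFs combined the epidermal set with part of the vascular set. Col4a1 stood at 98.9, 116, 95.9 and 179 CPM after PBMCsec and at 0, 113, 174 and 114 CPM after vehicle. The 0 was in vehicle library 1, which held only 10 HFs. In KCs the highest library had 16.0 CPM of Col4a1. Hspg2 was between 34.6 and 123 CPM in HFs, with a median of 62.9, and between 2.64 and 18.3 CPM in KCs. Lama5, the laminin α5 chain, was between 31.1 and 73.6 CPM in HFs, with a median of 46.6, and between 0 and 25.2 CPM in KCs.

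Of 8471 genes tested between HFs and KCs, 23.1% were called higher and 24.5% lower in HFs. All 6 members tested were called, Col4a1 higher by 4.12 on the log2 scale (SE 0.31, adjusted p = 2.70e-07), Hspg2 by 2.66 (SE 0.22, adjusted p = 3.66e-07) and Lama5 by 1.93 (SE 0.20, adjusted p = 2.99e-06). Lamb3 was lower in HFs, at -1.27 (SE 0.16, adjusted p = 1.55e-05), as were Col17a1 at -1.21 (SE 0.12, adjusted p = 2.50e-06) and Lama3 at -0.65 (SE 0.16, adjusted p = 0.0043), by edgeR. Scaling to the total alone moved the median of all genes by 0.32, and calls then were 75.6% higher in HFs instead of 48.4%. The 14 KC markers, none at 0 in either class, summed to 14546 CPM in HFs and 40064 CPM in KCs, and their part in these differences was not tested. Under total scaling Lama3 was no longer called (-0.33, edgeR adjusted p = 0.0715), and Lamb3 and Col17a1 stayed lower, at -0.96 and -0.91.

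Within HFs the levels came from few clusters. The cluster led by Id4, Gnmt and Scrg1 (353 cells, among whose markers are Lgr5, Lhx2 and Sox9, genes of follicle stem and progenitor cells) had 511 CPM of Col4a1 (488 to 536), 330 of Col4a2 (311 to 350), 156 of Hspg2 and 120 of Lama5 (109 to 132). It also had 1145 CPM of Col17a1 and 102 of Lama3, and 68.9 of Lamb3. The cluster led by Ptn, Gm973 and Grem1 had the highest Col17a1 of the 34 clusters, 1565 CPM (1512 to 1620), with 96.1 of Col4a1. Another HF cluster, led by Krt25, Krt71 and Tchh, had 45.4 CPM of Col17a1, 3.06 of Col4a1 and 38.0 of Lama5. Of all 34 clusters, Lama5 had its highest value in an unnamed cluster of 210 cells led by Dio3, Tagln and Csn3, at 152 CPM (135 to 170). The EC cluster led by Fabp4 was at 148 CPM (101 to 209), so these clusters cannot be ordered. The unnamed cluster had 2 HF markers, Lhx2 and Lgr5, and also 506 CPM of Col4a1 and 1.04 CPM of Nid1.

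Nid1, which encodes nidogen-1, was the most FB-restricted of the 9. FBs were 22.2% of kept cells and held 91.3% of its 14639 UMIs, and the mean over libraries was 89.3% ± 5.7 (SD, n = 8). Its level in FBs was 1070, 1000.2, 1180.3 and 1084 CPM after PBMCsec and 1892, 895, 1071 and 1335 CPM after vehicle. In HFs the highest library had 1.72 CPM. Of FBs, 91.1% held a Nid1 UMI (89.4% to 92.5%), against 1.55% of TCs, and 77.2% against 0.742% after thinning. ECs, at 168 to 329 CPM in 6 libraries, and SMCs/PCs, at 221 CPM (160 to 296), came next and cannot be ordered by these values.

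Nid2 had far fewer counts, 553 UMIs in all, of which FBs held 66.7%. In FBs it ranged from 5.66 to 96.7 CPM with a median of 34.3, and in ECs from 31.0 to 90.8 CPM with a median of 50.2. The ranges of both classes overlap. In KCs and in HFs 1 UMI was found in each class. Among the clusters Nid2 was highest in the FB cluster led by Ednrb, Col11a1 and Lrrc15, at 125 CPM (106 to 147), which had the lowest Nid1 of the FB clusters but 1, 404 CPM (368 to 442). The FB cluster led by Mrgprg had 1828 CPM of Nid1 and 6.22 of Nid2, so the FB clusters with the most of each nidogen were different ones, as a description of pooled cells.

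With libraries pooled, the same Ednrb cluster was the FB cluster with the most collagen IV, at 768 CPM of Col4a1 (719 to 820) and 453 of Col4a2 (415 to 493). Its libraries with at least 10 cells ranged from 468 to 1032 CPM of Col4a1. The Mrgprg cluster had 171 and 56.9 CPM, and its libraries ranged from 78.7 to 263 CPM of Col4a1, below every library of the Ednrb cluster. In single libraries the order of the FB clusters was not always the same. In PBMCsec library 1 the FB cluster led by Mgp, Hmcn2 and Angptl1 had 659 CPM of Col4a1 against 468 in the Ednrb cluster, and in PBMCsec library 2 the FB cluster led by Sfrp2, Fn1 and Ace had 1523 CPM (26 cells) against 549 (5 cells). Hspg2 went the other way, with 138 CPM in the Ednrb cluster and between 205 and 323 CPM in the other 5 FB clusters. An unnamed cluster of 190 cells led by Adamts18, Peg3 and Hpgd, which had 11 FB markers, had 958 CPM of Col4a1 (913 to 1004) and 421 of Col4a2.

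Across all kept cells FBs held 38.6% of the 9656 Col4a1 UMIs, HFs 21.8% and the 5 unnamed clusters 29.9%. ECs were 1.37% of the cells and held 5.73%, and SMCs/PCs, 0.618% of the cells, held 3.25%. As means over libraries these shares were 15.4% ± 20.5 and 2.87% ± 3.96 (SD, n = 8), so the SD was larger than the mean for both. Of the 5107 Hspg2 UMIs FBs held 59.7% and HFs 18.7%, and of the 1266 Lama5 UMIs HFs held 62.0%. With cells up to 10% mitochondrial counts the FB share of Col4a1 was 32.4% and that of Nid1 90.4%, while the KC share of Col17a1 fell to 41.0% and its HF share rose to 55.4%.

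**Figure D3:**
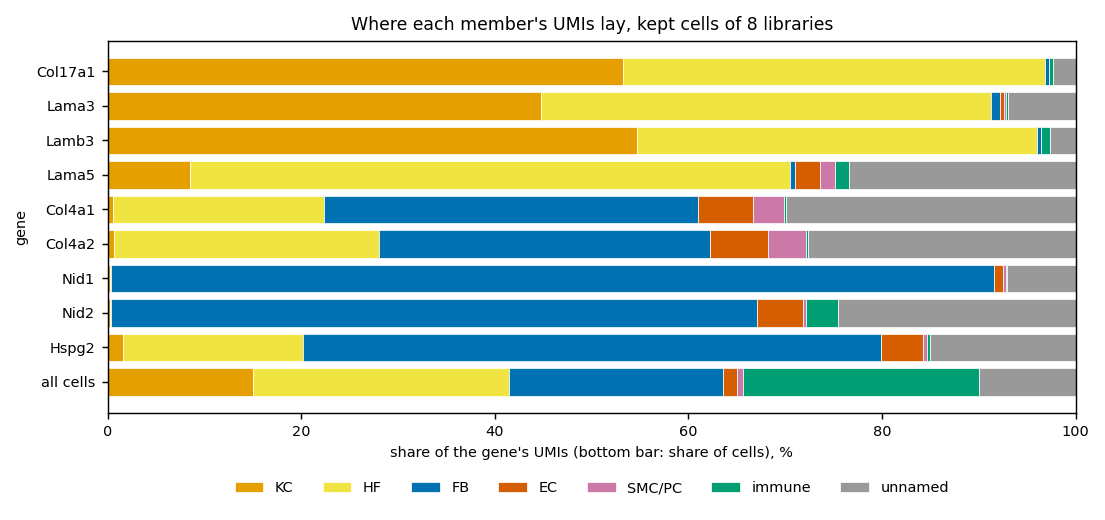
Share of each gene's UMIs (horizontal axis, percent) in each cell class over the kept cells of 8 libraries, with the share of cells in the bottom bar. Nid1 lies almost wholly in FBs, Col17a1, Lama3 and Lamb3 in KCs and HFs, and ECs and SMCs/PCs give a larger share of Col4a1 and Col4a2 than of cells.

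As CPM, ECs and SMCs/PCs had the highest collagen IV of the named classes when libraries were pooled. In ECs, Col4a1 was 685, 816 and 1467 CPM in PBMCsec libraries 1, 3 and 4 and 1328, 569 and 945 CPM in vehicle libraries 2, 3 and 4, the others having under 10 ECs. Col4a2 was 465, 516 and 868 CPM and 556, 209 and 329 CPM in the same libraries. In SMCs/PCs, summed over libraries, Col4a1 was 1576 CPM (1406 to 1760) and Col4a2 974 CPM (841 to 1121). These intervals cover counting error only. Single libraries, of 1 to 12 cells, ranged from 244 to 2984 CPM of Col4a1 and from 107 to 1920 CPM of Col4a2. Vehicle library 4 (8 cells) gave 143 of the 314 Col4a1 UMIs. PBMCsec library 3 (12 cells) had 905 CPM of Col4a1 and 374 of Col4a2, both within the range of the EC libraries. FB markers summed to 6168 CPM in the SMC/PC cluster, with 5 of 12 at 0, and 51936 CPM in FBs, and their part in the SMC/PC values was not tested. No test of SMCs/PCs against ECs was run, since too few libraries held 10 cells of both.

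Of 2390 genes tested between ECs and FBs in 6 libraries, 22.2% were called higher and 26.2% lower in ECs. Col4a1 was higher in ECs by 1.59 (SE 0.30, edgeR adjusted p = 9.12e-04) and Col4a2 by 1.66 (SE 0.29, edgeR adjusted p = 4.33e-04). Nid1 was lower by -2.44 (SE 0.18, edgeR adjusted p = 3.84e-07). Hspg2 did not pass the test, at 0.18 (SE 0.20, edgeR adjusted p = 0.49), and its ranges overlapped, 264 to 567 CPM in 6 EC libraries and 193 to 798 CPM in 8 FB libraries. Total scaling moved the median of all genes by 0.24 and the share of calls that were higher in ECs from 45.8% to 62.1%, and changed none of these 4 directions.

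The 2 EC clusters differed in several of the genes, given here as counts of pooled cells. The cluster led by Fabp4, 8430408G22Rik and Plvap (34 cells, the last a gene of blood capillaries) had 1437 CPM of Col4a1 (1282 to 1607) and 556 of Hspg2 (461 to 665). The cluster led by Ccl21a, Mmrn1 and Cldn5 (50 cells, with lymphatic markers) had 725 CPM of Col4a1 (637 to 822) and 301 of Hspg2 (245 to 366). Lama5 gave 32 UMIs in the first, or 148 CPM (101 to 209), and 1 UMI in the second, or 2.98 CPM (0.0756 to 16.6). Nid2 leaned to the second cluster, with 65.7 CPM (41.1 to 99.4) against 18.5 (5.05 to 47.5), intervals that overlap. Nid1 was at 257 CPM (205 to 317) and 218 CPM (160 to 290), also overlapping. The intervals cover counting error only, and the cells come from several libraries.

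Col4a1 and Col4a2, which share their start region and encode chains of the same collagen, went together over clusters. Across the 30 clusters of at least 50 cells, Pearson's r of log2(CPM + 10) was 0.99, the highest among 5390 genes for either. The clusters highest in collagen IV were too small to enter, the SMC/PC cluster (38 cells) and the EC cluster led by Fabp4 (34 cells). Of the vessels only the EC cluster with lymphatic markers entered. Clusters share libraries and depth, so this r is a description. The next genes were Angptl4 (0.94) and Tgfb1i1 (0.93) for Col4a1, and Bace1 and Bgn (both 0.92) for Col4a2. The ratio of Col4a1 to Col4a2 UMIs was 1.87 in ECs (1.47 to 2.88 in 6 libraries), 2.20 in FBs (1.38 to 3.25 in 8 libraries) and 1.55 in HFs (0.891 to 1.93 in 7 libraries), ranges that overlap. Of FBs with a Col4a2 UMI 87.1% held Col4a1, and of FBs without 42.7% did. The same shares were 81.4% and 12.2% in HFs, 89.2% and 73.7% in ECs, and 87.1% and 85.7% in SMCs/PCs. In SMCs/PCs the shares were thus nearly equal, and depth per cell enters all of them.

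Over the same clusters, the epidermal genes had each other among their nearest. For Lamb3 the first was Col17a1 (0.94), then Lama3 (0.90) and Tns4 (0.88), and for Col17a1 the first was Tns4 (0.95), then Lamb3 and Lama3 (0.91). Lama3 was nearest to Fat2 (0.95), Bcam (0.93), a laminin α5 receptor, and Ajuba (0.92). Nid1 was nearest to Grb10 (0.99), Ebf1 and Fbn1 (both 0.98), and Nid2 to Sned1 (0.85), Thbs4 and Rftn2 (both 0.84). Hspg2 was nearest to Pxdn (0.96), the peroxidase that crosslinks collagen IV, then Bmp1 and Flrt2 (both 0.95). Lama5 was nearest to Tenm2 (0.93), Bnc1 and Gjb6 (both 0.92). Between Col17a1 and Nid1 r was -0.45, and between Col4a1 and Lamb3 -0.17.

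**Figure D4:**
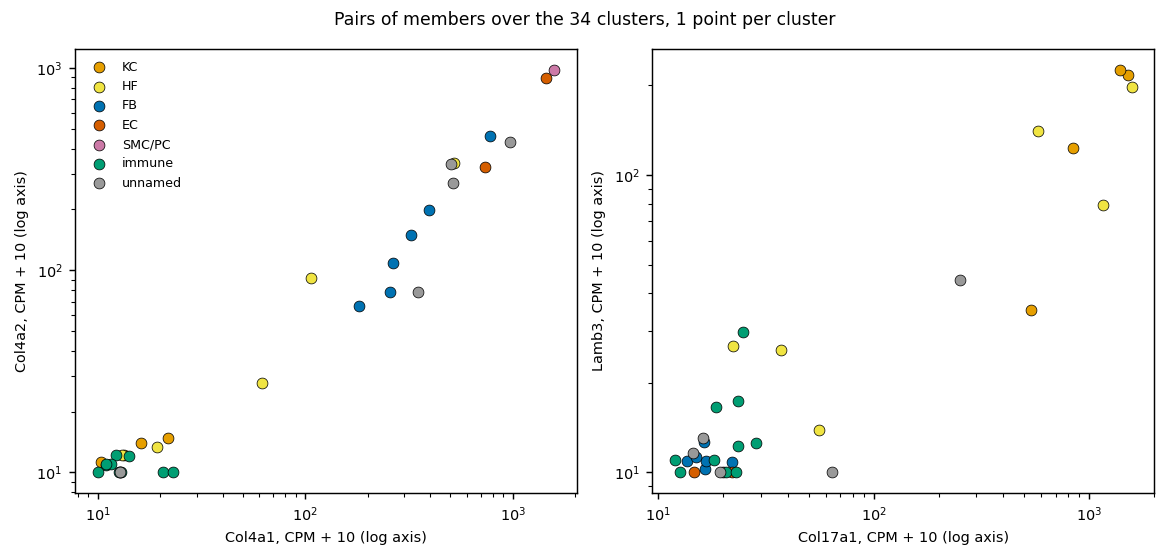
Levels of Col4a1 against Col4a2 (left) and of Col17a1 against Lamb3 (right) in each of the 34 clusters (CPM + 10, log axes), coloured by class. KC clusters 2, 12 and 25 and HF clusters 1, 3 and 4 lie at the upper right for Col17a1 and Lamb3. KC cluster 6 is lower in Lamb3 (25.1 CPM). HF clusters 5, 13 and 17 are lower in both, with 45.4, 27.1 and 12.3 CPM of Col17a1. ECs, SMCs/PCs, FBs and HF cluster 1 spread along the diagonal for Col4a1 and Col4a2.

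Of 24 other listed basement membrane components 14 were tested between KCs and FBs, of which 7 were called lower and 5 higher in KCs, beside 36.7% lower and 33.7% higher of all genes. Called lower were Lama2 (-7.79), Col15a1 (-7.73), Lama4 (-7.44), Lamb1 (-4.95), Lamc1 (-4.09), Lamb2 (-3.52) and Ntn4 (-3.41). Among those called higher were Col4a5 (2.82), Col7a1, the anchoring fibril collagen (2.61), Npnt (2.50) and Agrn (1.43), all as log2 fold changes by edgeR. Lamc1, the laminin γ1 chain, stood at 23.2 CPM in KCs, 425 CPM in FBs and 44.7 CPM in TCs. The median of the 14 was -1.66, beside -0.027 over all genes. Of 13 genes tested between HFs and KCs, 8 were called higher in HFs, led by Lamb1 (3.44), Ntn4 (3.31) and Fras1 (2.81), then Col18a1 (1.87), Agrn (1.47), Npnt (1.05), Lamc1 (0.69) and Col4a5 (0.53). Smoc2 (-1.04) and Col7a1 (-0.87) were among the 3 called lower. Of all genes 23.1% were called higher and 24.5% lower in HFs.

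Between ECs and FBs 9 of the 24 were tested. The shares of all genes called were 22.2% higher and 26.2% lower in ECs. Tinagl1 (7.63), Col18a1, the source of endostatin (3.08), Col15a1 (0.77) and Lama4, the laminin α4 chain of vessels (0.56), were called higher in ECs. Lama2 (-11.04), Smoc2 (-10.75), Lamb2 (-1.29) and Lamc1 (-0.89) were called lower. Lama2 and Smoc2 had no UMI in ECs, so their fitted values are no measure of size. Col15a1 was close to the threshold, with an adjusted p of 0.0499 by edgeR.

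Of 13 receptor and hemidesmosome genes tested between KCs and FBs, 9 were called higher in KCs and 3 lower, with a median of 2.21. For all genes the shares were 33.7% higher and 36.7% lower. Higher were Itga3 (6.52) and Itga6 (5.57), integrin chains that bind laminin, Bcam (5.34), Itgb4, the hemidesmosomal integrin β4 (5.08), Sdc1 (3.61), Ddr1 (3.54), Itga2 (2.21), Dst (1.70) and Plec (1.43). Itga1 (-2.43), Dag1 (-1.38) and Itgb1 (-0.75) were lower. In FBs Itga3 (0.861 CPM), Itga6 (9.38 CPM) and Bcam (2.93 CPM) were under their TC levels of 4.15, 37.0 and 3.26 CPM. The sizes of these changes thus rest on low counts in FBs. Between HFs and KCs 7 of 13 were called lower in HFs, Itga2 (-1.26), Itga3 (-1.12), Itga6 (-1.02), Dst (-0.87), Itgb4 (-0.78), Plec (-0.54) and Itgb1 (-0.42), and 4 higher, Itga1 (2.68), Dag1 (1.13), Sdc1 (1.03) and Cd151 (0.46). For all genes these shares were 24.5% lower and 23.1% higher. Between ECs and FBs Itga6 (4.94), Cd151 (1.76), Plec (1.75) and Dst (0.53) were called higher in ECs and Dag1 (-1.25) lower, of 6 tested. Here 22.2% of all genes were higher and 26.2% lower.

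All 12 genes for folding, crosslinking and processing of collagen IV (median -2.21) were called lower in KCs than in FBs, from Loxl2 (-7.78), Pxdn (-7.51) and Plod2 (-5.62) through Serpinh1, the collagen chaperone HSP47 (-4.24), Bmp1 (-4.24), P4ha2 (-2.24), Plod1 (-2.18), P4hb (-1.93), Mia3 (-1.88), Plod3 (-1.20) and Colgalt1 (-0.98) to P4ha1 (-0.94). Beside them, 36.7% of all genes were called lower in KCs. Apart from Pxdn, the peroxidase that crosslinks collagen IV, most of these genes also serve fibrillar collagens, which FBs make. The part of fibrillar collagens in these differences was not tested. In HFs against KCs, Pxdn (5.17), Plod2 (2.06), Serpinh1 (1.35) and Bmp1 (1.15) were called higher, and P4ha2 (-1.79), Plod1 (-1.61), P4ha1 (-1.15) and Colgalt1 (-0.55) lower, of 11 tested. For all genes the shares were 23.1% higher and 24.5% lower. ECs were called lower than FBs in 7 of 9 of the collagen IV folding genes tested, Bmp1 (-2.73), Serpinh1 (-2.14), Loxl2 (-1.81), P4ha1 (-1.66), Mia3 (-1.19), P4hb (-1.11) and Colgalt1 (-0.81), and higher in Plod1 (1.21). For all genes the shares were 26.2% lower and 22.2% higher.

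The comparison of PBMCsec with vehicle within a class asked whether the injection altered these genes. No member was called in any class. On simulated FB library sums with known changes, edgeR called 15.5% of 2-fold and 91.7% of 4-fold changes. A lack of calls in FBs therefore does not show a lack of 2-fold changes. These shares are over 97 and 96 genes drawn at random from those tested and changed at once. In the real FB sums no gene was called, which makes the adjustment stricter. The shares were not measured for the members, so a lack of calls does not show a lack of 4-fold changes in them either. Levels in this comparison are TMM-scaled CPM, where TMM sets the libraries on a common scale. Their denominator is the UMIs of the genes tested, not all UMIs of the class. Where few genes were tested, as in ECs (1486 genes), they are therefore higher than the class CPM given above. They compare libraries within a class and are not to be set beside those class CPM. Here n is 4 against 4 libraries, except in ECs with 3 against 3. Of all genes tested, 0% of 9282 were called in FBs, 0% of 7606 in KCs, 0% of 9867 in HFs and 0.0673% of 1486 in ECs. The last is 1 gene, Hspb1, a small heat shock protein outside the lists, named after its value was seen. At an unadjusted p under 0.05 edgeR gave 95 genes lower and 110 higher after PBMCsec in FBs, 30 and 52 in KCs, 92 and 238 in HFs and 27 and 51 in ECs, and DESeq2 called 0 genes in FBs, 4 in KCs, 1 in HFs and 9 in ECs. On the simulated FB sums 14.4% of the calls of DESeq2 were false, against 5.50% of those of edgeR.

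In FBs Col4a1 was 456, 1063, 206 and 329 CPM after PBMCsec and 228, 132, 328 and 286 CPM after vehicle. PBMCsec library 2 was the highest and vehicle library 2, with 19 FBs, the lowest, and the groups overlapped. The log2 difference was 1.03 (SE 0.44, edgeR unadjusted p = 0.037, adjusted p = 1.0). Col4a2 was 218, 539.6, 80.5 and 174 CPM after PBMCsec and 70.1, 95.7, 147 and 117 CPM after vehicle, a difference of 1.16 (SE 0.47, edgeR unadjusted p = 0.029, adjusted p = 1.0). Both genes had the same libraries at the top and neither passed the adjustment. Without PBMCsec library 2 the differences were 0.40 and 0.49, with libraries 3 and 4 alone -0.20 and -0.077, and with libraries 1 and 2 alone 2.08 and 2.21. The collagen IV-rich Ednrb cluster made up 13.0%, 8.77%, 10.2% and 18.5% of FBs after PBMCsec and 3.70%, 10.5%, 20.9% and 13.9% after vehicle. Leaving that cluster out, Col4a1 was 437, 1045, 159 and 199 CPM after PBMCsec and 240, 76.4, 267 and 227 CPM after vehicle, scaled to the total. The FB cluster led by Sfrp2 held 75.3% of the Col4a1 UMIs of FBs in PBMCsec library 2, and its level was 39.9 to 409 CPM in the other 7 libraries. Leaving out this cluster instead, Col4a1 was 451, 510.3, 249.1 and 413 CPM after PBMCsec and 237, 158, 433 and 369 CPM after vehicle, and PBMCsec library 2 was still the highest.

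Nid1 in FBs was 1108, 1040.3, 1193 and 1154 CPM after PBMCsec and 1817, 945, 1019 and 1332 CPM after vehicle. The vehicle libraries lay on both sides of the PBMCsec libraries, and the difference was -0.18 (SE 0.24, edgeR adjusted p = 1.0). Hspg2 in FBs was 310.2, 611, 195 and 295 CPM after PBMCsec and 587, 843, 195 and 266 CPM after vehicle, a difference of -0.40 (SE 0.45, edgeR adjusted p = 1.0). In each group Hspg2 was higher in both libraries of the lower numbers than in the others. After PBMCsec the nearest values of these were 310.2 and 295 CPM. Nid2 in FBs ranged from 17.8 to 100.5 CPM after PBMCsec and from 5.98 to 41.7 CPM after vehicle, a difference of 0.65 (SE 0.49, edgeR adjusted p = 1.0).

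**Figure D5:**
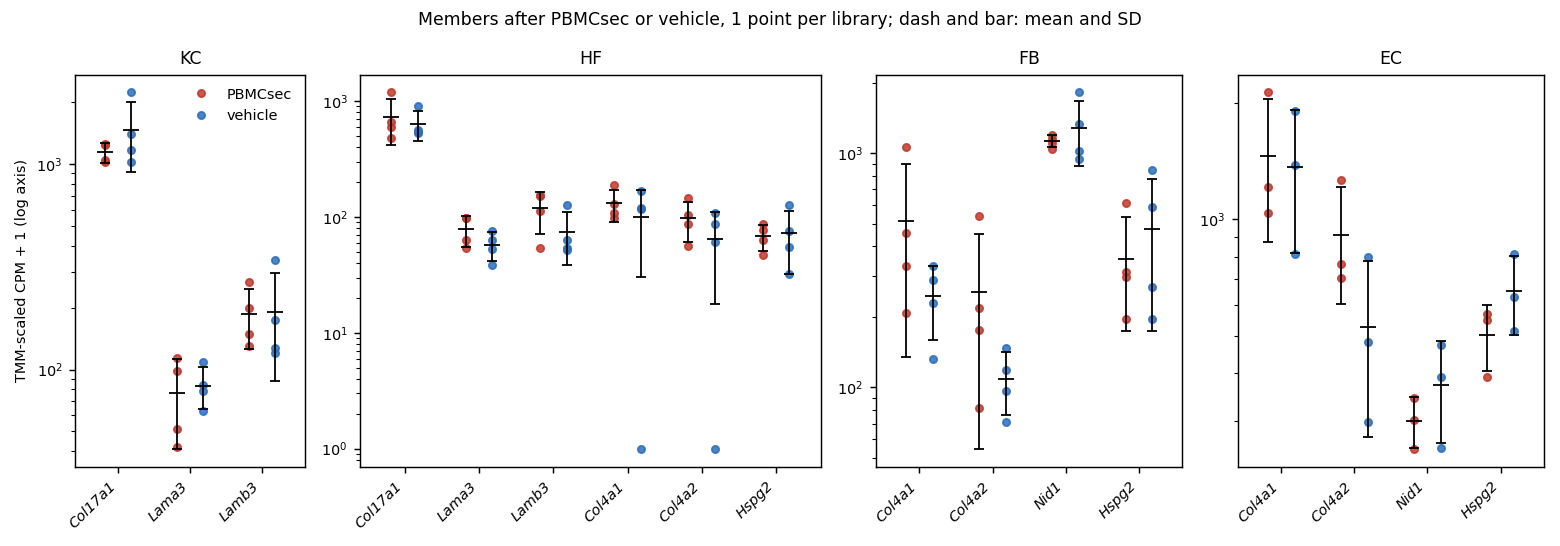
Level of each tested gene with a median of at least 50 CPM in KCs, HFs, FBs and ECs, in PBMCsec (red) and vehicle (blue) libraries (TMM-scaled CPM + 1, log axis), with 1 point per library and the mean and SD as dash and bar. The lower bar end stops at the axis value of 0 CPM where the SD passes it. The groups overlap for all 17 pairs of gene and class shown.

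In KCs Col17a1 was 1258, 1236, 1022 and 1040.5 CPM after PBMCsec and 1405, 2233, 1025 and 1167 CPM after vehicle, a difference of -0.36 (SE 0.24, edgeR adjusted p = 1.0). It was -0.098 with libraries 3 and 4 alone, and -0.066 without vehicle library 2. Lama3 was 113, 40.7, 97.5 and 50.5 CPM after PBMCsec and 82.6, 108, 77.8 and 61.9 CPM after vehicle (-0.0089, SE 0.33). Lamb3 was 198, 265, 129 and 147 CPM after PBMCsec and 174, 340.4, 120.0 and 127 CPM after vehicle (-0.066, SE 0.35). The groups overlapped for all 3, and vehicle library 2 was the highest for Col17a1 and Lamb3. Lama5 (-0.64, SE 0.46) and Hspg2 (0.52, SE 0.54) were at low counts in KCs, under 30 CPM in every library.

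In HFs Lama3 was 97.8, 97.6, 62.3 and 53.3 CPM after PBMCsec and 62.6, 75.3, 51.6 and 37.4 CPM after vehicle, a difference of 0.50 (SE 0.29, edgeR adjusted p = 1.0). Lamb3 was 155, 151, 111 and 52.9 CPM after PBMCsec and 62.6, 126, 51.1 and 53.2 CPM after vehicle, a difference of 0.69 (SE 0.39, edgeR adjusted p = 1.0). For both, PBMCsec libraries 1 and 2 were above every vehicle library and PBMCsec libraries 3 and 4 were not. Within the vehicle group libraries 1 and 2 were likewise above libraries 3 and 4 for both genes, so the levels split by library number in each group. With libraries 3 and 4 alone the differences of Lama3 and Lamb3 were 0.36 and 0.65, with libraries 1 and 2 alone 0.42 and 0.53, and leaving out 1 library 0.29 to 0.69 and 0.50 to 1.10, the highest of both without vehicle library 2. Col17a1 was 1190.0, 598, 656 and 483 CPM after PBMCsec and 532, 906, 546 and 561 CPM after vehicle (0.20, SE 0.29). Col4a1 was 107, 129, 97.2 and 189 CPM after PBMCsec and 0, 115, 166 and 117 CPM after vehicle (0.19, SE 0.43). Col4a2 was 86.4, 145, 55.7 and 102 CPM after PBMCsec and 0, 59.8, 108 and 86.8 CPM after vehicle (0.27, SE 0.42). The groups overlapped in each. Hspg2 was 62.6, 75.5, 46.0 and 85.5 CPM after PBMCsec and 31.3, 126, 54.3 and 74.9 CPM after vehicle (-0.18, SE 0.32), and Lama5 ranged from 31.3 to 75.3 CPM in both groups together (-0.16, SE 0.31).

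In ECs Col4a2 was 703, 763 and 1257 CPM after PBMCsec and 797, 298 and 479.7 CPM after vehicle, a difference of 0.77 (SE 0.40, edgeR unadjusted p = 0.079, adjusted p = 0.94). It was 1.40 with libraries 3 and 4 alone, 0.43 without PBMCsec library 4 and 1.24 without vehicle library 2. Vehicle library 2 lay between the PBMCsec libraries. Col4a1 was 1035, 1206 and 2126 CPM after PBMCsec and 1904, 809.6 and 1379 CPM after vehicle (0.093, SE 0.37). Nid1 was 254, 302 and 344 CPM and 472, 256 and 389.7 CPM (-0.31, SE 0.35), and Hspg2 547, 390.3 and 569 CPM and 814, 511 and 629.5 CPM (-0.38, SE 0.33), again with overlapping groups. Nid2 in ECs was under the filter on low counts and was not tested. It was 58.6, 53.2 and 44.9 CPM after PBMCsec and 130.2, 107 and 89.9 CPM after vehicle, groups that did not overlap, from 3, 3 and 3 UMIs against 8, 5 and 3 UMIs. Of the 6550 genes with at least 10 UMIs in these ECs, 10.4% had groups that did not overlap. Lama5 in ECs, also not tested, was 156, 88.7 and 59.9 CPM after PBMCsec and 97.6, 0 and 149.9 CPM after vehicle. Each library held between 10 and 16 ECs.

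Whether the difference between treatments varied between classes was tested by exact permutation of the treatment labels over libraries, two-sided, for 7 pairs of a gene with 2 classes. None passed. The smallest adjusted p was 0.33, for Col17a1, Lama3 and Lamb3 in HFs against KCs, where the difference of effects was 0.45, 0.66 and 0.62 on the log2 scale (exact permutation p = 0.14, 0.11 and 0.11). The smallest p the design allows is 0.029 with 4 against 4 libraries and 0.1 with 3 against 3. After adjustment over the 7 pairs no adjusted p under 0.05 could be reached, so the test cannot decide whether the effects differed between classes.

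Of the other 24 basement membrane components, none was called in FBs (14 tested, median log2 difference 0.018), KCs (10, 0.00093), HFs (14, 0.15) or ECs (7, 0.18), beside medians of all genes of 0.0029, 0.013, 0.016 and -0.027. By level over all cells of a class, the highest in FBs were Lamc1 (425 CPM) and Lama2 (306 CPM), in KCs Smoc2 (208 CPM), in HFs Col18a1 (235 CPM) and Agrn (172 CPM), and in ECs Lama4 (445 CPM) and Col18a1 (343 CPM). No receptor or hemidesmosome gene was called either (10 tested in FBs, 12 in KCs, 14 in HFs and 6 in ECs), among them Itgb1 (428 CPM) and Dst (307 CPM) in FBs, Dst (937 CPM) and Itga6 (421 CPM) in KCs, Sdc1 (1141 CPM) and Dst (576 CPM) in HFs, and Itgb1 (615 CPM) and Plec (534 CPM) in ECs. The same held for the collagen IV folding genes (12, 9, 11 and 3 tested), of which Serpinh1 was highest in FBs (1005 CPM), with P4hb (396 CPM), and P4hb and P4ha1 were highest in KCs, P4hb and Serpinh1 in HFs and Serpinh1 and P4hb in ECs.

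Summed over every barcode, without a cell filter or classes, 0% of 15375 genes were called, and no member. Here fewer cells of a type and less RNA per cell cannot be told apart. Col4a1 was 211, 242, 172 and 201 CPM after PBMCsec and 214, 172, 190 and 156 CPM after vehicle, a difference of 0.23 (SE 0.15, edgeR adjusted p = 1.0). Col4a2 was 112, 134, 80.1 and 103 CPM after PBMCsec and 97.9, 89.4, 104 and 79.6 CPM after vehicle (0.27, SE 0.17). Col17a1 was 443, 468, 371 and 291 CPM after PBMCsec and 447, 619, 449 and 314 CPM after vehicle (-0.16, SE 0.21). The groups of all 3 overlapped, and the other 6 members differed by -0.25 (Lama5) to 0.37 (Nid2).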

How the data were processed

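For each library the authors deposited a matrix of UMI counts by gene and barcode, not normalized, from reads aligned to mm10. The submitters' processing notes and the headers of the deposited files name Cell Ranger 3.0.2, and the study's methods name a later release. Cells were filtered by the study's limits, and Gm42418, Gm17056 and Gm26917 were removed. Seurat 5.3.0 (2000 variable features, 30 dimensions, resolution 1, integrated by library) gave the clusters. The 9 genes and 3 lists were left out of the variable features. A cluster was named with at least 3 markers in at least 25% of its cells at 2-fold or more (prior 10 CPM) and a check of the top 10 genes. That 5 contractile genes were not counted was set after the clusters were seen, as was the alternative that counts cluster 16 as FBs. No doublet caller was used for the values, since Scrublet called 0.341% of cells.

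Counts were summed per library and class (at least 10 cells) and compared by the quasi-likelihood test of edgeR 4.0.16 after TMM scaling and its filterByExpr filter (two-sided, Benjamini-Hochberg adjusted p under 0.05). The SE given with a log2 difference is its absolute value divided by the square root of that test's F statistic. It is not a separately fitted standard error. Following the study, 3 collagen genes outside FBs and 5 keratinocyte genes outside KCs, 8 in all, stayed out of the treatment fits. DESeq2 1.42.0, other scalings and filters, and left-out libraries were alternatives. The scripts were tested on simulated data. Levels per class in CPM without TMM are scaled to the class total, and intervals are exact Poisson or Clopper-Pearson at 95%. A member was given with every library where its median was at least 50 CPM. From each list every called gene was named, or otherwise the 2 highest in CPM. 1 listed gene is counted but not reported here by name. The members and lists were chosen with earlier results of these data known. The time point of each library was not analysed here.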

Additional observations from a re-analysis of the deposited data

Results flagged for a closer look

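In 5 of 44 groups of 4 libraries looked at, 1 library stood far from the other 3 by Dixon's criterion, which chance meets in about 1 in 20 groups. Vehicle library 2 was high in HFs, at 906 CPM of Col17a1 against 561 CPM in the next library, and at 126 CPM of Lamb3 against 62.6 CPM. Summed over every barcode, Nid1 was 551 CPM in vehicle library 1 against 152 CPM in the next, Lama5 was 49.8 CPM in PBMCsec library 4 against 28.4 CPM, and Lama3 was 25.7 CPM in vehicle library 4 against 41.3 CPM in the nearest.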

How the results depend on the processing

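The 7 calls among the members between KCs and FBs kept their direction and their side of the threshold under all 18 alternatives, as did those between ECs and FBs under the alternatives that gave a value. No cause was tested for the values below. Between HFs and KCs, Lama3 lost its call under total scaling and with libraries 1 and 2 alone (-0.29). Total scaling gave 3820 genes higher and 1231 lower in HFs against 1953 and 2079. Libraries 1 and 2 alone gave 384 and 616 there, and 1130 and 1372 in KCs against FBs (2978 and 3239). Without the filter on low counts 2931 genes were higher in HFs, and 4963 lower in KCs than in FBs. Between ECs and FBs (530 higher, 626 lower) DESeq2 gave 1090 and 1233, no filter 1100 and 2216, libraries 3 and 4 alone 863 and 1200, the 10% mitochondrial limit 935 and 1140, and leaving out single libraries 460 to 861 and 561 to 1363, the highest of both without vehicle library 2.

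For treatment, the 1 gene called in ECs became 9 with DESeq2, 59 without the filter, and 0 with libraries 3 and 4 alone, at the 10% limit and with the replicate block. Leaving out single libraries gave 0 to 31 in ECs (31 without PBMCsec library 4), 0 to 1 in HFs and 0 to 5 in KCs (5 without PBMCsec library 3). The 0 genes of KCs became 4 with DESeq2, 7 without the filter and 1 with libraries 1 and 2 alone, those of HFs 1 with DESeq2 and 1 with libraries 3 and 4 alone, and those of FBs 5 with libraries 1 and 2 alone and 1 with the replicate block. The labels do not say what a library number marks. Deviations of same-numbered libraries correlated between -0.048 and 0.44 over genes, highest for number 4 in HFs, then in KCs (0.38), and not every pair was over 0.1, so the numbers were not taken to pair libraries. Numbers 1 and 2 had 1457 to 2738 barcodes and numbers 3 and 4 had 4163 to 5621, in both groups. Within each group Col17a1 and Lamb3 in KCs and Hspg2 in FBs were higher in numbers 1 and 2 than in 3 and 4. Nid1 in FBs did not split so. The correlations cover libraries of the same number only. A shared difference of numbers 1 and 2 from 3 and 4 was not tested, and the main treatment fits held no term for it. With the replicate block Lamb3 in KCs was 0.047 and Nid1 in ECs 0.034.

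None of the member differences that changed sign was called. With libraries 3 and 4 alone they were -0.20 for Col4a1, -0.077 for Col4a2, 0.0016 for Nid1 and 0.089 for Hspg2 in FBs, 0.11 for Lama3 and 0.15 for Lamb3 in KCs, -0.31 for Col4a2 and 0.034 for Hspg2 in HFs, and 0.042 for Nid1 in ECs. With at least 20 cells they were 0.043 for Hspg2 in FBs, 0.13 for Lama3 in KCs and -0.040 for Col4a1 in HFs. At the 10% limit they were -0.0070 for Col17a1 and 0.085 for Hspg2 in HFs, and -0.012 for Col4a1 in ECs, which total scaling set to -0.0057. Without the filter Lama3 in KCs was 0.023. With clusters at resolution 0.5, HFs gave -0.71 for Col4a1, -0.88 for Col4a2 and -0.099 for Col17a1. There a cluster of 569 cells with Id4, Gnmt and Scrg1 among its leading genes was unnamed and not counted as HFs. Another of 402 cells led by Wfdc18 was unnamed too. These HFs were thus not the same cells, and lacked the cluster with the leading genes of the collagen IV-rich HF cluster. Hspg2 in ECs against FBs was -0.18 without the filter, -0.44 with libraries 1 and 2 alone and -0.54 without the highest doublet scores. In kept cells alone, the sums over all classes gave 0.20 for Hspg2, -0.072 for Lama3, -0.18 for Lamb3 and 0.38 for Nid1. Leaving out single libraries gave -0.14 to 0.42 for Col17a1, -0.098 to 0.49 for Col4a1 and -0.36 to 0.14 for Hspg2 in HFs, -0.31 to 0.43 for Col4a1 in ECs, -0.78 to 0.043 for Hspg2 and -0.30 to 0.032 for Nid1 in FBs, and -0.24 to 0.17 for Lama3 and -0.26 to 0.41 for Lamb3 in KCs. The difference of effects between ECs and FBs ranged from -0.91 to 0.35 for Col4a1 and from -0.38 to 0.36 for Hspg2. Not run for ECs, for want of libraries, were at least 20 cells, libraries 1 and 2 alone and the removal of doublet scores in the treatment comparison, and at least 20 cells against FBs. ECs and SMCs/PCs were few, and counts of Nid2 and Lama5 low, which limits what could be tested.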
